A study of Mus musculus with 2 samples.

Results

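Transcripts of 8 matrix proteoglycan genes were measured in mouse cardiac myofibroblasts, 7 small leucine-rich proteoglycans (Bgn, Dcn, Aspn, Lum, Fmod, Prelp and Ogn) and the large proteoglycan versican (Vcan). The genes were chosen by symbol, and all 8 were found among the 24532 genes of the count table. The comparison rests on 2 libraries, 1 from cells transfected with an siRNA against Bcat1 (siBcat1) and 1 from cells transfected with a control siRNA (siControl). Both libraries came from C57BL/6 hearts, from myofibroblasts isolated 3 days after myocardial infarction, grown in medium with fetal bovine serum, given 12.5 nM siRNA by lipid transfection and cultured for 72 hours. Bcat1 encodes the cytosolic aminotransferase of branched-chain amino acids. The labels name 1 siRNA product against Bcat1 and give neither the age or number of the mice nor whether the libraries came from separate cultures. Each group had 1 library, so no difference below has a replicate check, and no test was made.

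Small leucine-rich proteoglycans are secreted proteins with a horseshoe-like stack of leucine-rich repeats. They lie on collagen fibrils, set fibril spacing and diameter, and hold growth factors such as TGF-beta in the matrix. Many carry chains of chondroitin, dermatan or keratan sulfate. Versican carries long chondroitin sulfate chains, binds hyaluronan at its amino end, and fills the provisional matrix of healing tissue. In the infarcted heart these proteins are made mainly by activated fibroblasts as the scar forms.

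As a check of the knockdown, Bcat1 had 99 counts in siBcat1 and 8891 counts in siControl, or 1.44% of the siControl level after scaling. The siBcat1 library held 104581819 counts and the siControl library 127309329 counts. Levels are given as CPM, a gene's share of its library's counts after scaling by TMM factors, where 1 CPM stood for 101 counts in siBcat1 and 131 counts in siControl. TPM is the deposited value per transcript length, and the order and shares of the genes by level are taken from it. Brackets hold exact 95% intervals of counting error, which carry no spread between cultures and treat reads as independent.

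Transcripts of 7 of the 8 genes had a log2 fold (siBcat1 over siControl) below 0, and Aspn had a log2 fold of 0.12. Prelp, Fmod and Vcan were at least 2-fold lower, Bgn was 1.78-fold lower, and Ogn, Lum and Dcn differed by less. None was at least 2-fold higher. All 8 passed the minimum of 5 CPM (mean of both libraries), which 9935 genes passed, and none rested on fewer than 1876 counts in either library. Of these 9935 genes 13.0% were at least 2-fold lower and 5.58% at least 2-fold higher. Genes that were higher made up 30.0% of these, and 44.7% under upper-quartile factors and 5.38% with TPM. The median log2 fold was -0.67 over the 8 genes and -0.06 over the 9935 genes.

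**Figure D1:**
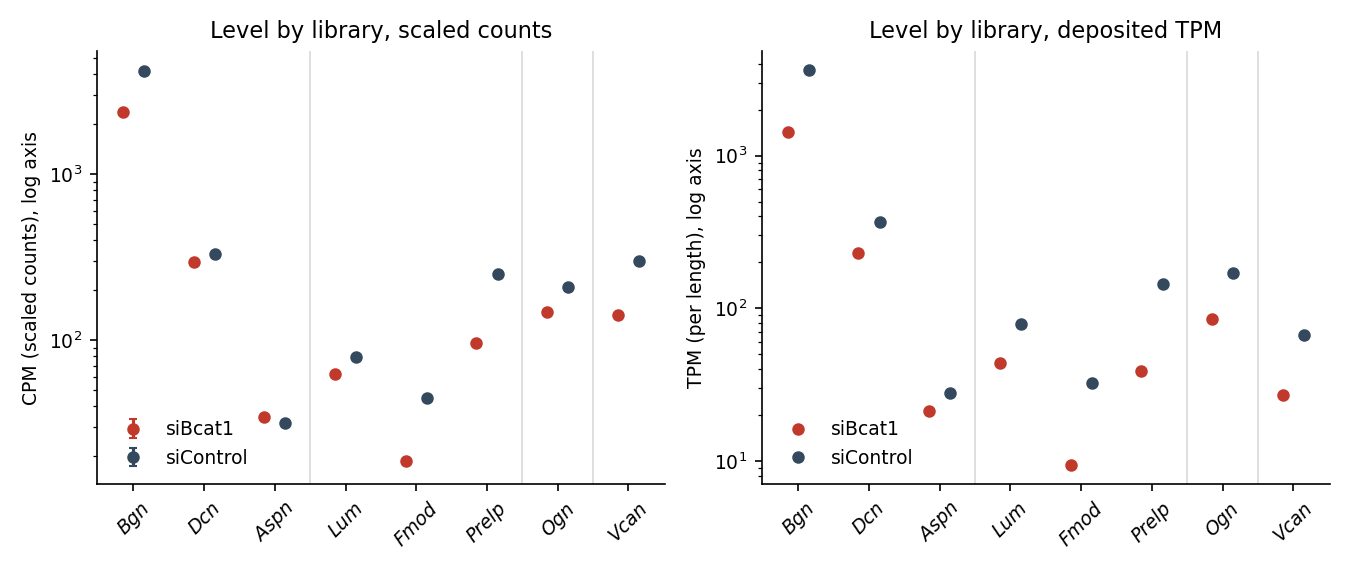
Level of each gene in the siBcat1 library (red, left) and the siControl library (dark, right), as scaled counts in CPM and as deposited TPM, both on log axes. Bars in the CPM panel are exact 95% counting intervals and lie within the points; grey lines part classes I, II and III and versican, and Bgn lies far above the others in both libraries.

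The folds of these libraries depended on transcript length, so each gene is set beside genes of like length. With the genes in 10 length groups of near equal size, the shortest group had a median log2 fold of 0.74 and the longest -1.01. Over the 9886 genes with an annotated length and counts in both libraries, a smooth curve of log2 fold on length was subtracted, and the remainder is called length-adjusted. On that scale 2 of the 8 genes (Fmod and Prelp) were at least 2-fold lower and none was 2-fold higher, against 5.28% lower and 4.14% higher among all genes. The length-adjusted median was -0.49 over the 8 genes. Of the 8 genes 7 lay below the median of their own group by annotated length, Aspn being the exception. In bulk RNA, fewer cells that express a gene and less RNA per cell cannot be told apart.

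**Figure D2:**
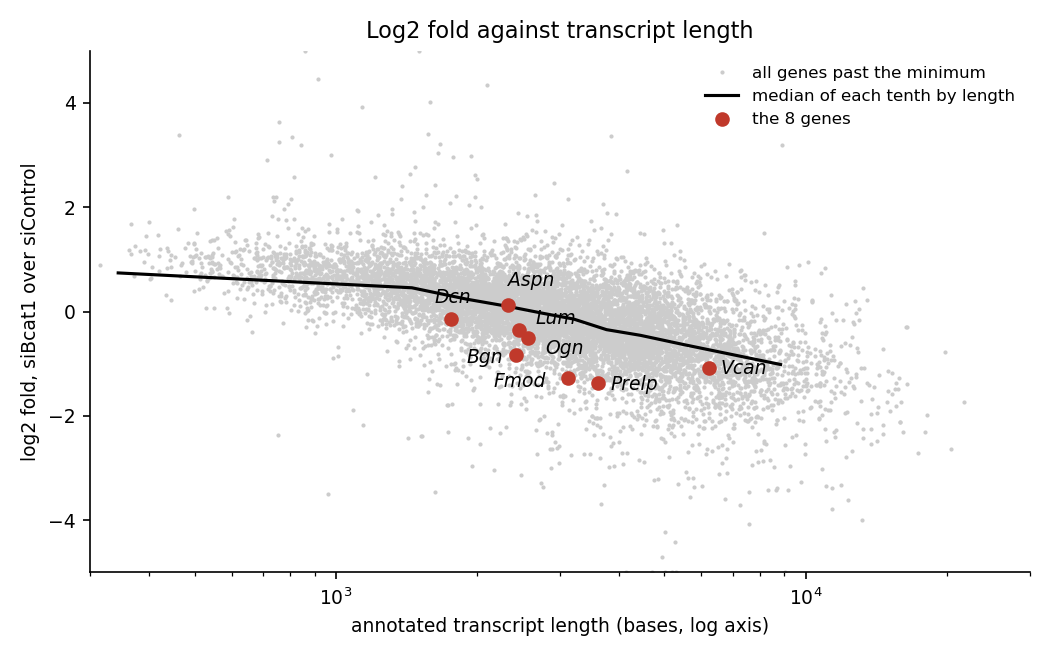
Log2 fold (siBcat1 over siControl, scaled counts; values past 5 drawn at the edge) against annotated transcript length on a log axis. Grey points are genes past the minimum, the black line joins the medians of the 10 length groups, and red points are the 8 genes; Fmod, Prelp and Bgn lie well under the line, Aspn on it and Vcan nearer to it.

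Promoter sequences of the genes with the lowest and the highest fold are shown, since these mark the ends of the range. Each runs from 250 bases before to 50 bases after the transcript start in RefSeq (GRCm38.p6), 5′ to 3′ on the gene's strand. Capitals mark the letters CAGAC (a short element bound by SMAD factors) and TATAAA (the TATA box), on either strand.

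Prelp (chr1:133921352-133921651, minus strand): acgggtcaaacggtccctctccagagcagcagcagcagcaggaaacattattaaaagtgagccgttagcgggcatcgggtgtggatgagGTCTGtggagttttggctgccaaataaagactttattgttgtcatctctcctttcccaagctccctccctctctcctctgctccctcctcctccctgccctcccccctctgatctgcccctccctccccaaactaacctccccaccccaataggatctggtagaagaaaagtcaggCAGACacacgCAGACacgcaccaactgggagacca
Fmod (chr1:134037004-134037303, plus strand): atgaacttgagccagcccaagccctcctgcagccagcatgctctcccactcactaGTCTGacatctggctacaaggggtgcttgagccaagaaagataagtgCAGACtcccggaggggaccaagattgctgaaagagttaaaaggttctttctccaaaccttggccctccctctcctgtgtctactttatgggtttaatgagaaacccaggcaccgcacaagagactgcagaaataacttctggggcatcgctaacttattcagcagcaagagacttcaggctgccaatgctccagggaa
Vcan (chr13:89742463-89742762, minus strand): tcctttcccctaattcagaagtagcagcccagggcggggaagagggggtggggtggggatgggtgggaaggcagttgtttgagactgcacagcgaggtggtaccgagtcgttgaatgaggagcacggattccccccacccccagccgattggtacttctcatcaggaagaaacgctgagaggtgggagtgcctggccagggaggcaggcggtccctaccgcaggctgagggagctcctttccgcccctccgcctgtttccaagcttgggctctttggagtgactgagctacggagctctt
Aspn (chr13:49544193-49544492, plus strand): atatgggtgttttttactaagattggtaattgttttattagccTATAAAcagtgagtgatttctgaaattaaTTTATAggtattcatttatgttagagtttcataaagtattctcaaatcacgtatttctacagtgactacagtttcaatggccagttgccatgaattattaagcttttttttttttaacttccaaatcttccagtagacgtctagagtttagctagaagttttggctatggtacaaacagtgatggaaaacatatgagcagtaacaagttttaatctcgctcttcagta

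The letters CAGAC occurred in the promoters of Prelp and Fmod, in 2 of the 6 members' promoters in the table, and in 49.6% of all 32851 promoters of the same length. In Prelp they began at bases 16 and 26 of the transcript and, on the other strand, 161 bases before its start. In Fmod they began 148 bases before the start and, on the other strand, 195 bases before it. TATAAA occurred in Aspn and Ogn, at least 178 bases before the start, and in 13.6% of all promoters. The GC box of SP1 (GGGCGG) was found in Bgn and Vcan and in 35.7% of all promoters. TGANTCA, the AP-1 motif, was found in 0 of the 6 and in 7.81% of all. The TEAD motif GGAATG was found in Ogn and in 14.7% of all, and the C/EBP motif TTNNGNAA in Aspn, Fmod and Prelp and in 40.7% of all. Each motif was searched on both strands, overlaps included, and a match describes the letters and not a bound site.

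Class I holds biglycan, decorin and asporin. Biglycan (Bgn, chromosome X, 73483602 to 73495933, plus strand, GRCm38, 8 exons) is a collagen-binding proteoglycan that, once released from the matrix, is a ligand of the toll-like receptors TLR2 and TLR4. Bgn had 239428 counts in siBcat1 and 553797 counts in siControl, or 2364 CPM in siBcat1 and 4214 CPM in siControl. The siBcat1 library was the lower, with a log2 fold of -0.83 [-0.84 to -0.83], which is 56.1% of the siControl level. The median log2 fold of genes of like length was 0.10, and the length-adjusted value of Bgn was -0.90. By deposited TPM, Bgn was the 115th most abundant of all genes in siBcat1 with 1426 TPM, and the 25th in siControl with 3608 TPM.

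Decorin (Dcn, chromosome 10, 97479609 to 97518143, plus strand, 8 exons) is the closest relative of biglycan, binds fibrillar collagen and TGF-beta, and acts on receptor tyrosine kinases such as EGFR and MET. Dcn had 30105 counts in siBcat1 and 43379 in siControl, or 297 CPM in siBcat1 and 330 CPM in siControl. The libraries lay close together, with a log2 fold of -0.15 [-0.17 to -0.13], which was -0.02 under upper-quartile scaling and -0.66 with TPM. The genes of its length group had a median of 0.24, and the length-adjusted value was -0.45.

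Asporin (Aspn, chromosome 13, 49544443 to 49567565, plus strand, 8 exons) has a run of aspartates at its amino end, lacks the usual attachment site for a sugar chain, and inhibits TGF-beta in cartilage cells. Aspn had 3464 counts in siBcat1 and 4125 in siControl, or 34.2 CPM in siBcat1 and 31.4 CPM in siControl. It was the only one of the 8 with a higher scaled level in siBcat1, with a log2 fold of 0.12 [0.06 to 0.19]. The sign was not firm: the value was 0.25 under upper-quartile scaling, 0.03 length-adjusted and -0.37 with TPM, where the median of all genes was -0.47. Bgn and Aspn, both of class I, differed by -0.96 in log2 fold (Bgn minus Aspn, 95% Wald interval of counting error -1.02 to -0.89).

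Class II holds lumican and fibromodulin, which carry keratan sulfate in several tissues, and PRELP. Lumican (Lum, chromosome 10, 97565128 to 97572703, plus strand, 3 exons) regulates the assembly of collagen fibrils and keeps the cornea clear. Lum had 6280 counts in siBcat1 and 10412 in siControl, or 62.0 CPM in siBcat1 and 79.2 CPM in siControl. The siBcat1 level was 78.3% of the siControl level, a log2 fold of -0.35 [-0.40 to -0.31] and a length-adjusted value of -0.41.

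Fibromodulin (Fmod, chromosome 1, 134037254 to 134048277, plus strand, 3 exons) shares a collagen binding site with lumican and brings lysyl oxidase to the fibril. Fmod had 1876 counts in siBcat1 and 5900 in siControl, or 18.5 CPM in siBcat1 and 44.9 CPM in siControl. It was 2.42-fold lower in siBcat1, with a log2 fold of -1.28 [-1.35 to -1.20]. Genes of like length had a median of -0.14. The length-adjusted value of Fmod was -1.14, the lowest of the 8 genes on that scale.

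PRELP (Prelp, chromosome 1, 133910304 to 133921414, minus strand, 3 exons) has a proline- and arginine-rich amino end that binds heparan sulfate and links basement membranes to the matrix around them. Prelp had 9728 counts in siBcat1 and 32757 in siControl, or 96.0 CPM in siBcat1 and 249 CPM in siControl. At 38.5% of the siControl level it had the lowest fold of the 8 genes in scaled counts, -1.38 [-1.41 to -1.34]. The length-adjusted value was -1.10, and its length group had a median of -0.35. Prelp and Fmod were at least 2-fold lower under the 8 other scalings and length adjustments tried, with ranges of -1.88 to -1.10 for Prelp and -1.77 to -1.14 for Fmod.

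Class III is represented by osteoglycin, also called mimecan (Ogn, chromosome 13, 49608046 to 49624501, plus strand, 7 exons), whose proform is trimmed by the procollagen protease BMP-1. Ogn had 14932 counts in siBcat1 and 27440 in siControl, or 147 CPM in siBcat1 and 209 CPM in siControl. The log2 fold of -0.50 [-0.53 to -0.47] placed it in the middle of the 8 genes, and the length-adjusted value was -0.53. With TPM and a pseudocount of 1 it was -0.999, just short of 2-fold lower, and with a pseudocount of 0.1 it was -1.01, just past it.

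**Figure D3:**
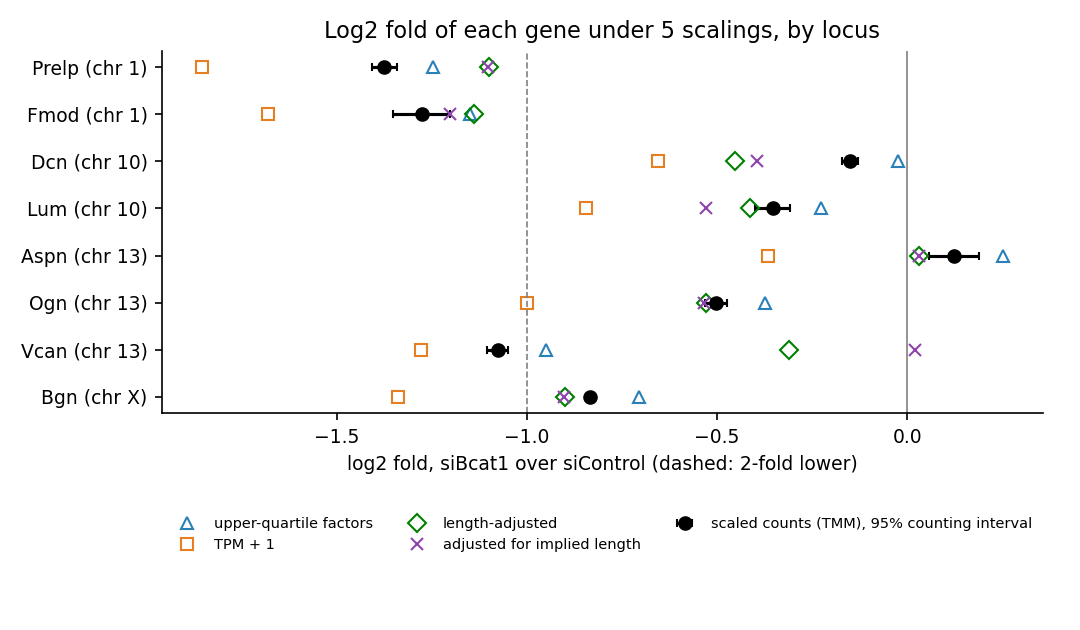
Log2 fold of each gene (siBcat1 over siControl), ordered by chromosome, in scaled counts with 95% counting intervals (black) and under 4 other settings (upper-quartile factors, TPM with a pseudocount of 1, and the trend on annotated or implied length removed). Prelp and Fmod stay left of the dashed line of 2-fold lower throughout, and Vcan shows the widest change, with -1.28 for TPM and 0.02 when adjusted for the length that counts and TPM imply.

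Versican (Vcan, chromosome 13, 89655312 to 89742509, minus strand) had 14393 counts in siBcat1 and 39388 in siControl, or 142 CPM in siBcat1 and 300 CPM in siControl. The siBcat1 library was lower, with a log2 fold of -1.08 [-1.10 to -1.05]. This call depended on the scaling and on length. The log2 fold was -0.95 under upper-quartile scaling, and -0.31 after removal of the trend on annotated length, with a mean annotated length of 6211 bases. In its group by annotated length the median log2 fold was -0.63 and 28.6% of genes were at least 2-fold lower.

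Versican is spliced into forms with both, 1 or neither of the large exons to which chondroitin sulfate chains are attached, and the deposited tables list 5 transcripts for it. Their annotated lengths were 12427 bases (Vcan-203), 8332 bases (Vcan-206), 5702 bases (Vcan-202), 2321 bases (Vcan-201) and 2273 bases (Vcan-205) in GENCODE M21. The tables give gene totals only, but the ratio of count to TPM gives the mean transcript length that the authors' estimate implies. For 6300 genes with 1 transcript accession this ratio shifted between libraries by a constant factor, within 1% for nearly all (99.97%). For Vcan the implied mean length was 7.72 kilobases in siBcat1 and 9.32 kilobases in siControl, 17.2% shorter in siBcat1. The other 7 genes had implied length ratios of 1.00.

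Such a drop was uncommon but not confined to Vcan. Of 3634 genes with several transcript accessions, 47 (1.29%) had a ratio at or below that of Vcan, 0.828, and the range from the 5th to the 95th percentile was 0.957 to 1.04. Among 383 such genes with an implied length of at least 6343 bases, the median ratio was 1.00 and 9 lay at or below Vcan. With the trend on implied length removed, the log2 fold of Vcan was 0.02. Which of the 5 transcripts differed cannot be read from gene totals, and the part that the library-wide trend on length plays in the ratio was not tested.

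**Figure D4:**
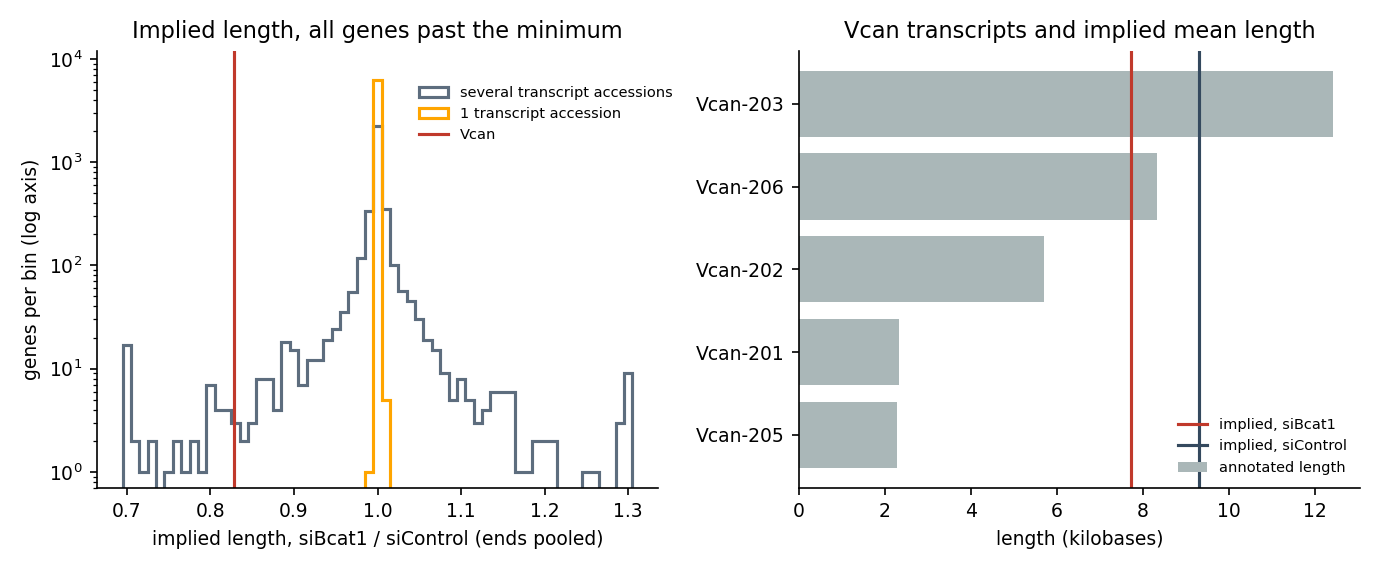
Left, ratio of implied transcript length (siBcat1 / siControl) over genes past the minimum, with counts of genes per bin on a log axis and ratios beyond 0.7 and 1.3 pooled at the ends. Vcan (red line) stands at 0.828; right, annotated lengths of the 5 Vcan transcripts (bars, kilobases) with the implied mean length in siBcat1 (red, 7.72) and siControl (dark, 9.32).

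The order of the 8 genes does not depend on the scaling of counts, since any factor moves all folds together. From the lowest fold upward it was Prelp, Fmod, Vcan, Bgn, Ogn, Lum, Dcn and Aspn. Of the 28 pairs, 28 had a difference whose counting interval did not include 0. The closest neighbours were Prelp and Fmod, with a difference of -0.10 (Wald interval -0.18 to -0.02). After removal of the length trend 6 of the 28 differences turned sign, 4 of them with Vcan and the others between Prelp and Fmod and between Lum and Dcn. Counting error understates the spread between cultures, so these intervals do not show that the order would hold in other cultures.

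Several of the genes lie in clusters with other family members, and the folds of cluster neighbours are given side by side. On chromosome 1, Prelp and Fmod lie 116 kilobases apart and had -1.38 and -1.28. Optc (opticin), next to Prelp, had 11 counts in siBcat1 and 34 in siControl, too few for the minimum. On chromosome 10, Dcn and Lum lie 47.0 kilobases apart and had -0.15 and -0.35. Their neighbour Kera (keratocan) had 0 counts in both libraries, which allows up to 0.0296 CPM in siBcat1 and 0.0228 CPM in siControl. Epyc (epiphycan), also there but under the minimum, had 430 counts in siBcat1 and 251 in siControl. Its log2 fold was 1.15 [0.92 to 1.38], opposite in sign to those of Dcn and Lum.

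On chromosome 13, Aspn and Ogn had 0.12 and -0.50, a difference of -0.63 (Ogn minus Aspn, -0.70 to -0.55), so neighbours there did not match. Between them lies Omd (osteomodulin), with 147 counts in siBcat1 and 175 in siControl. Ecm2, on the other side of Aspn, had 743 counts in siBcat1 and 752 in siControl, a log2 fold of 0.36. Aspn and Ogn lie within Cenpp, a centromere protein gene on the opposite strand with 675 counts in siBcat1 and 793 in siControl. Whether strand was used in counting is not given in the sources used here, so reads of the overlapping genes may not have been told apart, and the Cenpp totals are below those of Aspn. Antisense models overlap Prelp (Gm15851) and Vcan (Gm4117), and were not analysed here.

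As a pool, the 8 genes took 0.306% of all counts in siBcat1 and 0.563% in siControl. Their summed TPM was 1883 in siBcat1 and 4494 in siControl, and without Bgn it was 457 in siBcat1 and 886 in siControl. Per length, Dcn had 232 TPM in siBcat1 and 366 TPM in siControl, Ogn 84.8 TPM in siBcat1 and 171 TPM in siControl, and Lum 43.7 TPM in siBcat1 and 79.2 TPM in siControl. Prelp had 39.0 TPM in siBcat1 and 144 TPM in siControl, and Vcan 27.0 TPM in siBcat1 and 66.9 TPM in siControl. Aspn had 21.3 TPM in siBcat1 and 27.7 TPM in siControl, and Fmod 9.46 TPM in siBcat1 and 32.6 TPM in siControl. In deposited TPM each of the 8 genes was lower in siBcat1, where all genes together also had a median below 0, at -0.47 on the log2 scale with a pseudocount of 1, and Aspn with -0.37 lay above it. Bgn made up 75.7% of the summed TPM in siBcat1 and 80.3% in siControl. Dcn made up 12.3% in siBcat1 and 8.14% in siControl, and Ogn 4.50% in siBcat1 and 3.79% in siControl. Prelp made up 2.07% in siBcat1 and 3.19% in siControl, and was the 5th of the 8 by TPM in siBcat1, behind Lum, and the 4th in siControl, ahead of Lum. In CPM per kilobase Prelp was ahead of Lum in both libraries, with 2.05% for Prelp and 1.95% for Lum in siBcat1. Fmod made up 0.503% in siBcat1 and 0.725% in siControl and was the least abundant in siBcat1, where Aspn was the least abundant in siControl. Vcan made up 1.43% in siBcat1 and 1.49% in siControl, and 1.76% in siBcat1 and 2.20% in siControl when CPM per kilobase of annotated transcript was used, which holds its length constant. Lum made up 2.32% in siBcat1 and 1.76% in siControl, and Aspn 1.13% in siBcat1 and 0.616% in siControl.

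The collagens that these proteoglycans bind were lower as well. Of 10 listed collagen genes, all past the minimum, 8 were at least 2-fold lower and none was 2-fold higher, with a median of -1.32 in scaled counts and -0.67 length-adjusted, against -0.06 and 0.00 over all genes. Length-adjusted, 3 of the 10 were at least 2-fold lower, against 5.28% of all genes. The median length of these collagen transcripts falls in the length group of Vcan, in which 28.6% of genes were at least 2-fold lower in scaled counts. Col14a1, whose product decorin binds, had the lowest value with -3.55 [-3.60 to -3.49], followed by Col6a3 with -2.36 and Col12a1 with -2.31. Length-adjusted, Col14a1 had -2.87, Col6a3 -1.24 and Col12a1 -1.02. Col1a1 had 440168 counts in siBcat1 and 1453395 in siControl, a log2 fold of -1.35, and -0.63 length-adjusted, which is short of 2-fold.

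Levels relative to collagen depended on the collagen chosen and on transcript length. For every 100 TPM of Col1a1 there were 133 TPM of Bgn in siBcat1 and 93.3 in siControl. For Dcn there were 21.7 TPM in siBcat1 and 9.46 in siControl, a log2 ratio 1.20 higher in siBcat1 (Wald interval 1.17 to 1.22). Aspn had 1.98 TPM in siBcat1 and 0.716 in siControl on this measure, Ogn 7.92 in siBcat1 and 4.41 in siControl, and Lum 4.08 in siBcat1 and 2.05 in siControl. For Vcan there were 2.52 TPM in siBcat1 and 1.73 in siControl. In counts its log2 ratio to Col1a1 was only 0.27 higher in siBcat1 (Wald interval 0.24 to 0.30). The TPM values of Vcan also hold its shorter implied length in siBcat1. For Prelp there were 3.64 TPM in siBcat1 and 3.71 in siControl, and for Fmod 0.884 in siBcat1 and 0.842 in siControl. Col1a1 is a longer transcript, and length-adjusted the difference from Col1a1 was 0.18 for Dcn, 0.66 for Aspn, 0.22 for Lum, 0.10 for Ogn and 0.32 for Vcan, and below 0 for Bgn (-0.27), Prelp (-0.47) and Fmod (-0.51). Against Col3a1, whose log2 fold was -0.94, the difference was below 0 for Prelp (-0.43), Fmod (-0.33) and Vcan (-0.13), and above 0 for Bgn (0.11), Dcn (0.79), Aspn (1.07), Lum (0.59) and Ogn (0.44). Length-adjusted, 7 of the 8 differences from Col3a1 were below 0, such as -0.61 for Bgn and -0.16 for Dcn, and Aspn had 0.32. Against Col1a2, with a log2 fold of -1.28, the difference was -0.09 for Prelp and 0.01 for Fmod.

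The sugar chains are built by enzymes of the secretory pathway, beginning with xylosyltransferase, which puts xylose on a serine of the core protein. Of 21 genes for chondroitin and dermatan sulfate synthesis past the minimum (23 listed), 4 were at least 2-fold lower and none was 2-fold higher. Among all genes 13.0% were lower and 5.58% higher by as much. The median of the 21 genes was -0.21, which turned to 0.23 length-adjusted and to 0.12 with a minimum of 20 CPM. Xylt1, a xylosyltransferase gene, had 36 counts in siBcat1 and 2370 in siControl. Its log2 fold of -5.67 [-6.18 to -5.19] was the 4th lowest of the 9935 genes, next to that of the targeted Bcat1 in 3rd place, and it was -4.59 length-adjusted. Whether the siRNA acts on Xylt1 transcripts directly was not tested. Xylt2, which encodes the related enzyme, had 1649 counts in siBcat1 and 2567 in siControl, a log2 fold of -0.26.

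The other members at least 2-fold lower were sulfotransferase genes, which set the sulfation of the chains. Chst11, for chondroitin 4-O-sulfation, had 1967 counts in siBcat1 and 10631 in siControl, a log2 fold of -2.06 [-2.13 to -1.99]. Chst15, for the 6-O-sulfation of 4-sulfated units, had -1.87, and Ust, for uronyl 2-O-sulfation, had -1.07. Length-adjusted, Chst11 had -1.41, Chst15 -1.35 and Ust -0.66. The remaining sulfotransferase genes of this list past the minimum went both ways, with -0.76 in Chst7, 0.36 in Chst12 and 0.40 in Chst14. Their signs were the same length-adjusted. Of 4 keratan sulfate genes past the minimum (7 listed) none was 2-fold higher or lower. Among all genes 13.0% were lower and 5.58% higher by as much, so 0 of 4 does not set these genes apart. The values were -0.45 in B4galt1, -0.16 in Chst2 and 0.14 in B3gnt2. Length-adjusted they were -0.09 in B4galt1, 0.75 in Chst2 and 0.18 in B3gnt2. Their median was -0.12, and 0.01 under upper-quartile factors.

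**Figure D5:**
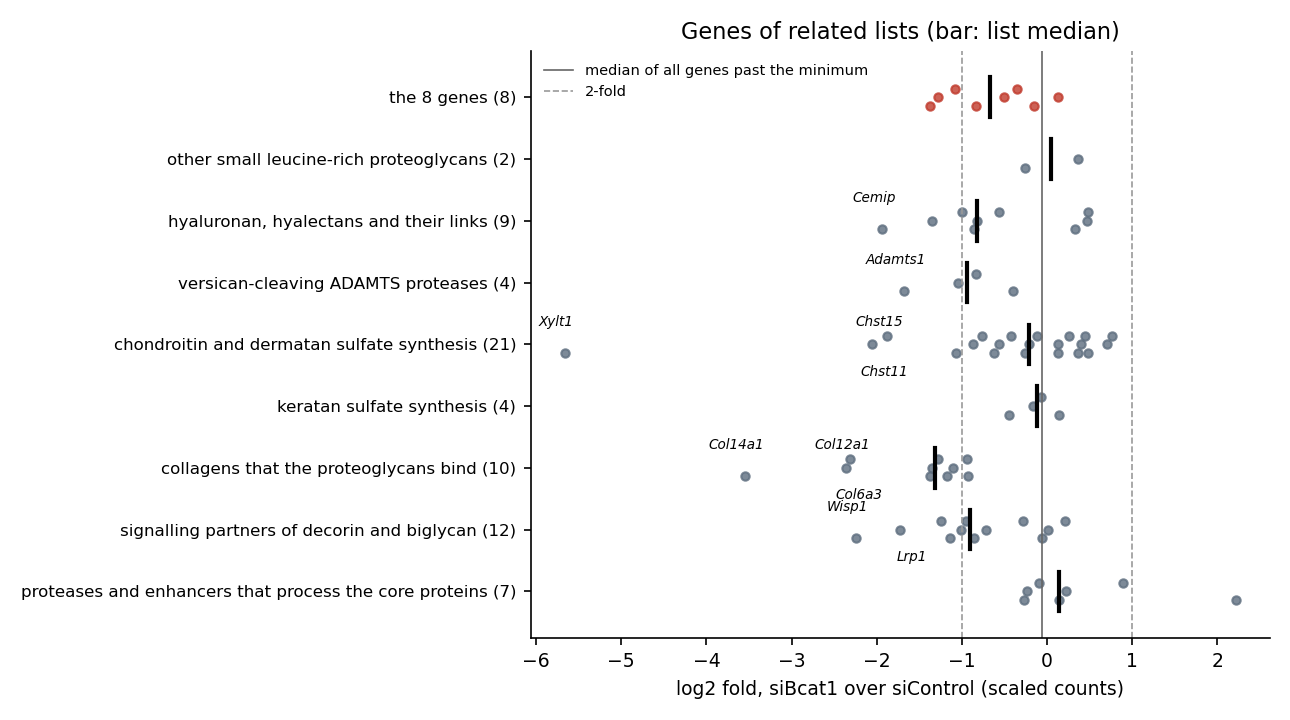
Log2 fold (siBcat1 over siControl, scaled counts) of the genes past the minimum in the 8 genes (red) and in 8 related lists (grey), with each list's median as a bar and the number of genes in brackets. The grey line is the median of all genes, -0.06, and dashed lines mark 2-fold; Xylt1 at -5.67 lies far from the other chain synthesis genes, and collagens lie lowest as a list.

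Versican works together with hyaluronan, its link proteins and the proteases that cleave it. Of 9 genes of the hyaluronan and hyalectan list past the minimum (20 listed), 2 were at least 2-fold lower and none higher, against 13.0% and 5.58% of all genes. The median length of these genes falls in a length group in which 17.3% were at least 2-fold lower. Their median log2 fold was -0.82, and -0.32 length-adjusted. The count of lower genes was 1 length-adjusted and 6 with TPM, against 5.28% and 22.4% of all genes. Cemip, which encodes a hyaluronan-depolymerizing protein, had 19313 counts in siBcat1 and 95908 in siControl, a log2 fold of -1.94 and a length-adjusted value of -1.05. Tmem2, a cell surface hyaluronidase gene, had -1.35, and -0.53 length-adjusted. Has2, the main hyaluronan synthase gene of fibroblasts, had -0.996, which is just short of 2-fold, and -0.59 length-adjusted. The other large chondroitin sulfate proteoglycans lay under the minimum. Acan (aggrecan) had 12 counts in siBcat1 and 178 in siControl, Bcan (brevican) had 60 in siBcat1 and 17 in siControl, and Ncan (neurocan) had 0 in both libraries.

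Of 4 versican-cleaving ADAMTS genes past the minimum (7 listed), 2 were at least 2-fold lower and none higher, against 13.0% and 5.58% of all genes. The median length of these genes falls in the length group of Vcan, in which 28.6% were at least 2-fold lower. Their median log2 fold was -0.94, and -0.14 length-adjusted. The count of lower genes was 1 length-adjusted and 3 with TPM, against 5.28% and 22.4% of all genes. Adamts1 had 7166 counts in siBcat1 and 29809 in siControl, a log2 fold of -1.68 and a length-adjusted value of -1.15. Adamts4 had -1.05, with -0.61 length-adjusted, and Adamts5 had -0.83 with the opposite sign, 0.40, after adjustment. Among 7 genes past the minimum (9 listed) for proteases and enhancers that process the core proteins, 1 was at least 2-fold higher and none lower. Among all genes 5.58% were higher and 13.0% lower by as much. The median of the 7 genes was 0.14. With TPM it was -0.48, over a smaller set of genes, those with a mean of at least 5 TPM. The higher gene was Mmp3 (stromelysin 1), with 37463 counts in siBcat1 and 10436 in siControl and a log2 fold of 2.22. Pcolce2, a procollagen protease enhancer gene, had 0.89 and Pcolce, its relative, had -0.27. Length-adjusted, Pcolce2 had 1.33 and Pcolce -0.64, so Pcolce2 and Mmp3 both lay past 2-fold on that scale. For Pcolce2 this depended on the annotated length. Its 19966 counts and 154 TPM in siBcat1 stand in a ratio near that of Dcn, with 30105 counts and 232 TPM. The implied lengths are thus near each other, yet the adjustment raised Pcolce2 and lowered Dcn.

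Of 12 signalling partners of decorin and biglycan past the minimum (17 listed), 5 were at least 2-fold lower and none higher, against 13.0% and 5.58% of all genes. The median length of these genes falls in a length group in which 17.3% were at least 2-fold lower. Their median log2 fold was -0.91, and -0.23 length-adjusted. Length-adjusted, 2 were lower by 2-fold or more (1 by implied length), and 1 was higher by as much, the receptor tyrosine kinase gene Met. On that scale 5.28% of all genes were lower and 4.14% higher. Wisp1, a matricellular protein that binds both proteoglycans, had -2.24 and a length-adjusted value of -1.67. Lrp1, the scavenger receptor through which cells take up decorin, had -1.73 and -0.23 length-adjusted, and the ligand gene Tgfb2 had -1.24 and -0.67 length-adjusted. Of the other small leucine-rich proteoglycans on the list, 2 of 12 passed the minimum, Ecm2 and Tsku (tsukushi), with 0.36 and -0.26. Their median was 0.05, and -0.04 with library totals. With TPM, Ecm2 fell below the minimum of 5 TPM, and Tsku alone had -0.72. Podn (podocan), below the minimum, had 83 counts in siBcat1 and 479 in siControl.

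The genes most like each member in level were found by distance in log2 CPM over the 2 libraries, which is only a likeness of 2 values. They were Col3a1 for Bgn (distance 0.14), Csnk1a1 for Dcn (0.04), Mpi for Aspn (0.01), Mknk2 for Lum (0.01), Rnf44 for Fmod (0.01), Adam19 for Prelp (0.06), P3h1 for Ogn (0.03) and Prpf8 for Vcan (0.08). Col3a1 had 2412 CPM in siBcat1 and 4638 CPM in siControl.

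Markers of the labelled cell type were present, with all 8 listed fibroblast and myofibroblast markers past the minimum and a summed 3983 TPM in siBcat1 and 9299 TPM in siControl. Col1a1, Acta2 and Col3a1 made up most of this sum. In scaled counts the median log2 fold of the 8 markers was -0.60, and -0.29 length-adjusted. Values ran from -1.35 in Col1a1 to 0.63 in Thy1, with -1.19 in Postn and -0.94 in Col3a1. Ddr2 had -0.76, Pdgfra -0.43, Acta2 -0.11 and Tcf21 -0.09. Length-adjusted, Postn had -1.04 and was the only marker still at least 2-fold lower. Of the 8 markers 2 were at least 2-fold lower, against 13.0% of all genes. The macrophage list summed to 32.3 TPM in siBcat1 and 13.1 TPM in siControl, with 1 of 8 markers (Lyz2) past the minimum and Ptprc, Adgre1 and Fcgr1 at 0 in both libraries. The cardiomyocyte list summed to 12.9 TPM in siBcat1 and 80.7 TPM in siControl, with 1 of 7 markers (Tnnt2, log2 fold -2.17) past the minimum and Myh6, Nppa, Ttn and Ryr2 at 0 in both libraries. The endothelial list summed to 21.6 TPM in siBcat1 and 25.3 TPM in siControl, with 1 of 7 markers (Tek) past the minimum. In scaled counts its direction was the other, with 51.2 CPM in siBcat1 and 48.7 CPM in siControl. The smooth muscle and pericyte list, with 0 of 6 past the minimum, summed to 3.32 TPM in siBcat1 and 6.65 TPM in siControl. The cartilage-like list of late scar cells, with 2 of 6 past the minimum, summed to 67.0 TPM in siBcat1 and 83.8 TPM in siControl. Here too the direction was the other in scaled counts, with 91.0 CPM in siBcat1 and 80.0 CPM in siControl. The part of these marker levels in the folds of the 8 genes was not tested.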

How the data were processed

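RNA sequencing of 2 libraries was used, 1 per siRNA, grouped by the treatment label. Per the labels' protocols, libraries were made with a stranded mRNA kit (TruSeq). Per the submitters' processing notes, FastQC, Trimmomatic, HISAT2, StringTie and mm10 were used; no source used here gives their roles or the use of strand in counting. Per the file headers, the deposited tables hold raw read counts and TPM per gene.

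Folds are siBcat1 over siControl in counts scaled by TMM (edgeR 4.0.16, R 4.3.3), with Clopper-Pearson 95% intervals of counting error only; 3 counts set the floor at 0. Length is the mean over a gene's transcripts in GENCODE M21 (GRCm38), found through RefSeq accessions, and the trend was removed by lowess (fraction 0.3, 3 iterations, statsmodels 0.14.6). Implied length is count over TPM, set to annotated length by the median of genes with 1 transcript. Promoters came from RefSeq (GRCm38.p6; 6 of the 8 genes matched). Python 3.11.15 served for the rest, and the calculations were tested on simulated data. DESeq2 1.42.0 gave alternative size factors.

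The genes, lists and settings were chosen with earlier results of these data known. Named genes were the 8 members, Bcat1, Col1a1, Col1a2 and Col3a1, family neighbours in the genome, up to 3 genes per list with the largest fold past the minimum, and the gene nearest to each member. Outside this rule lie Ust, Xylt2, Met, Acan, Bcan, Ncan, Podn, Chst7, Chst12, Chst14, Thy1, Tcf21, Acta2, Ddr2 and Pdgfra. They were named after their values were seen.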

Additional observations from a re-analysis of the deposited data

How the results depend on the processing

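The settings tried were DESeq2 size factors, library totals, upper-quartile factors, TPM with a pseudocount of 1 or 0.1, 3 removals of the length trend, minimum levels of 1 or 20 CPM or none, thresholds of 1.5-fold and 3-fold, and whole intervals past 2-fold. The number of the 8 genes at least 2-fold lower was 3, and it was 2 under upper-quartile factors and each removal of the length trend, 4 with TPM and a pseudocount of 1, 5 with a pseudocount of 0.1, 4 at 1.5-fold and 0 at 3-fold. The share of all genes that were lower was 13.0%, and it was 10.2% under upper-quartile factors, 5.28% to 5.39% with the length trend removed, 22.4% and 25.1% with TPM (pseudocount 1 and 0.1), 25.6% at 1.5-fold and 4.55% at 3-fold. None was 2-fold higher in any of these settings. The median of the 8 genes, -0.67, was -0.76 with library totals, -0.54 with upper-quartile factors, -1.14 and -1.16 with TPM (pseudocount 1 and 0.1), -0.49, -0.53 and -0.52 with the trend on annotated, implied or longest transcript length removed, and -0.68 as a mean. Upper-quartile factors moved the median of all genes by 0.13 and TPM by -0.41. Of all genes at least 2-fold apart, 30.0% were higher in scaled counts, 44.7% under upper-quartile factors and 5.38% with TPM. Vcan turned sign, with 0.0214 for implied length and 0.21 for the longest transcript, an adjustment added after its transcript lengths were seen; the longer the assigned length, the lower the trend subtracted. No paired analysis was possible because each group has 1 library, and for the same reason no library could be left out.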
